A study of Rattus norvegicus with 8 samples.

Results

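The genes described here are 46 genes of the smooth muscle contractile apparatus, the actin cytoskeleton and the SRF-myocardin regulators, chosen by name from the 37209 gene rows of the deposited count table. They were sorted by role into 19 smooth-muscle-enriched genes, 23 widely expressed cytoskeletal genes and 4 regulators, and 45 of the 46 had enough reads to be tested. The study compared 4 vein grafts with 4 control jugular veins of Sprague Dawley (SD) rats, an outbred strain, 1 week after the operation. A graft was a vein placed between the ends of the divided left common carotid artery, which were turned over short cuffs, and the control was the contralateral jugular vein. No genotype, drug or further treatment is named, all animals had the operation, and age and sex are not stated. The labels do not name the animal behind each library, so p-values measure the spread between these 8 libraries.

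In vascular smooth muscle, force comes from the smooth muscle myosin Myh11 pulling on filaments of the actins Acta2 and Actg2, which are dressed with tropomyosin, calponin and caldesmon. Phosphorylation of the myosin light chain by the kinase Mylk starts contraction, and a phosphatase guided by Ppp1r12a or Ppp1r12b ends it. Serum response factor (Srf) binds CArG boxes in many of these genes and calls on coactivators: myocardin (Myocd), made in smooth and cardiac muscle, and the myocardin-related factors Mkl1 and Mkl2 (now Mrtfa and Mrtfb), which sense free actin in many cell types. Smooth muscle cells that leave the contractile state are known for lower levels of contractile proteins.

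Libraries held 5981520 to 14267490 counts in the controls and 10533451 to 16061189 in the grafts, so that 3 counts correspond to 0.182 to 0.56 CPM (read counts scaled to library size with TMM factors). One extraction text in the labels names prefrontal cortex, but 7 neuron and astrocyte markers together reached only 2.63 to 8.4 CPM in any library, against 1451 to 4880 CPM for 8 endothelial markers. Controls 3 and 4 stood apart in markers of other tissues. Schwann cell markers summed to 2077 and 1917 CPM in them against 123 and 173 CPM in controls 1 and 2, adipocyte markers summed to 2585 and 3690 CPM in them against 565 and 875 CPM in controls 1 and 2, and skeletal muscle markers to 1529 CPM in control 3 against 41 to 220 CPM in the other controls. Of all 15464 genes tested, 42.3% had a p under 0.05 by the quasi-likelihood test of edgeR after Benjamini-Hochberg adjustment (called "edgeR adjusted p" below), 21.0% upward and 21.3% downward in the grafts, with a median log2 fold change of 0.01. Of these calls 49.7% were upward, and 67.8% when libraries were scaled by their totals alone.

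All 19 smooth-muscle-enriched genes fell in the grafts, and for all 19 the highest graft lay below the lowest control. By edgeR 0 of them rose, at an adjusted or unadjusted p under 0.05, which follows from the 19 falls. DESeq2 and limma voom, run on the same counts, also gave 0 rises and are no separate support. The background share of falls is 21.3% and that of non-overlapping groups 40.6% (19.8% with the grafts lower). The median log2 fold change (graft minus control) of these 19 genes was -2.46, and the values ran from -4.25 for Synpo2 to -0.72 for Cald1. A fall of at least 2 on the log2 scale was found for 12 of them and of at least 3 for 3 of them. Their share of all counts was 2.57% ± 0.521 (SD, n = 4) in the controls against 0.61% ± 0.113 (SD, n = 4) in the grafts. In bulk tissue, a smaller share of RNA from smooth muscle cells and less RNA of these genes per cell cannot be told apart.

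**Figure D1:**
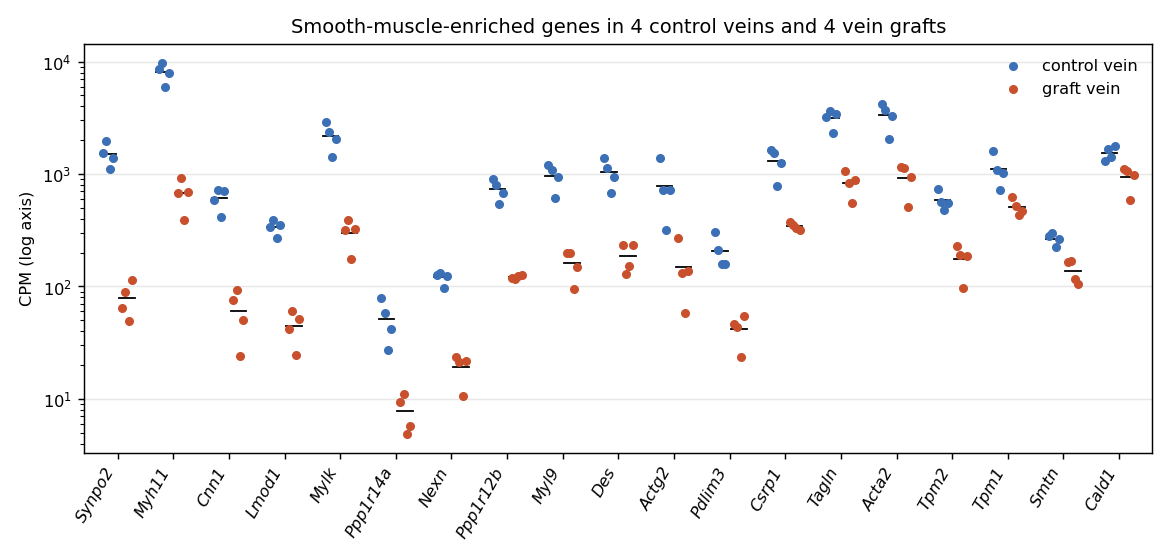
Level of each smooth-muscle-enriched gene (x axis, ordered from the largest fall to the smallest) in CPM on a log axis, with 1 point per library, blue for the 4 control veins and red for the 4 grafts, and a black line at each group mean. For all 19 genes the red points lie below the blue points.

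Among the motor proteins, Myh11, the smooth muscle myosin heavy chain, stood at 8688, 9817, 6001 and 7857 CPM in the control veins, here and below in the order 1 to 4, and at 682, 919, 394 and 693 CPM in the grafts. Every graft was below every control, and library 3 was the lowest of its group on both sides. Myh11 fell by 3.59 ± 0.30 on the log2 scale (± gives the SE; edgeR adjusted p = 3.78e-05), a fold of 12. Its regulatory light chain Myl9 stood at 1194, 1077, 613 and 946 CPM in the controls and at 198, 199, 96 and 148 CPM in the grafts, and fell by 2.58 ± 0.29 (edgeR adjusted p = 0.000135). The groups were again apart, with control 3 and graft 3 lowest.

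The actins had smaller fold changes than the myosin. Acta2, smooth muscle alpha-actin, stood at 4235, 3704, 2050.3 and 3289 CPM in the controls and at 1149, 1131, 504 and 938 CPM in the grafts, and fell by 1.84 ± 0.31 (SE; edgeR adjusted p = 0.00134). Actg2, the smooth muscle gamma-actin, stood at 1381, 722, 321 and 724 CPM in the controls and at 268, 131, 58.5 and 137 CPM in the grafts. Its graft 1 came close to control 3, the coefficient of variation over the controls was 55.8%, and the fall of 2.40 ± 0.51 (edgeR adjusted p = 0.00473) had the largest error of the 19. Because actin genes are alike in sequence, the split of reads between them is uncertain. Within a library, Myh11 counts were 2.05 to 2.93 times those of Acta2 in the controls and 0.593 to 0.812 times in the grafts. That ratio does not depend on how libraries were scaled. It was chosen after the values were seen and is given without a test.

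Proteins bound to the thin filament had falls of very different size. Tagln, the actin-bundling protein transgelin or SM22-alpha, stood at 3189.8, 3653, 2334 and 3411 CPM in the controls and at 1061, 836, 547 and 884 CPM in the grafts, and fell by 1.92 ± 0.24 (SE; edgeR adjusted p = 0.00025). Cnn1, calponin of smooth muscle, which damps the myosin ATPase, stood at 584, 723, 418 and 712 CPM in the controls and at 75.7, 93.7, 24.1 and 50.6 CPM in the grafts, and fell by 3.32 ± 0.39 (edgeR adjusted p = 0.000195). Graft 3 was lowest for both genes. Lmod1, leiomodin, which seeds actin filaments in smooth muscle, stood at 341, 387, 269.7 and 351 CPM in the controls and at 41.7, 60.2, 24.6 and 51.6 CPM in the grafts, and fell by 2.92 ± 0.26 (edgeR adjusted p = 4.83e-05). Synpo2, an actin-binding protein of the Z-disc and of dense bodies, had the largest fall of all 46 members. It stood at 1546, 1959, 1108 and 1400.0 CPM in the controls and at 64.5, 88.6, 49.5 and 113 CPM in the grafts, and its fold was 19 (log2 -4.25 ± 0.31; edgeR adjusted p = 2.41e-05).

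The tropomyosins of muscle and the caldesmon and smoothelin genes fell less. Tpm2 stood at 737, 569, 477 and 551 CPM in the controls and at 231, 189.97, 97.9 and 186 CPM in the grafts, and fell by 1.73 ± 0.25 (SE; edgeR adjusted p = 0.00064). Tpm1 stood at 1601, 1095, 729 and 1029.6 CPM in the controls and at 628, 518, 435 and 473 CPM in the grafts, and fell by 1.12 ± 0.24 (edgeR adjusted p = 0.00448). Both genes are spliced into muscle and non-muscle forms, which gene counts do not separate. Smtn, smoothelin, stood at 279, 297, 223 and 265 CPM in the controls and at 164, 168, 117 and 104 CPM in the grafts, and fell by 0.94 ± 0.18 (edgeR adjusted p = 0.00257). Cald1, caldesmon, which also has a non-muscle form, moved least of the 19, from 1306, 1677, 1425 and 1772 CPM in the controls to 1098, 1075, 588 and 982 CPM in the grafts (log2 -0.72 ± 0.22; edgeR adjusted p = 0.0228). Without control 2 or control 4 Cald1 was not past the threshold (edgeR adjusted p = 0.0642 and 0.0664), nor with controls 3 and 4 left out together (0.113).

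The enzymes that switch contraction on and off fell with the filaments. Mylk, the light chain kinase, stood at 2934, 2364, 1429 and 2033 CPM in the controls and at 317, 387, 174 and 327 CPM in the grafts, and fell by 2.86 ± 0.30 (SE; edgeR adjusted p = 0.000104). Ppp1r12b, the phosphatase targeting subunit of striated and smooth muscle, stood at 913, 802, 542 and 682 CPM in the controls. In the grafts it was at 119.5, 116, 123 and 126 CPM, the lowest coefficient of variation over the grafts of any tested member (3.43%), and fell by 2.60 ± 0.17 (edgeR adjusted p = 2.1e-05). Ppp1r14a, known as CPI-17, which blocks the phosphatase, stood at 79.7, 58.6, 27.4 and 41.8 CPM in the controls and at 9.41, 11, 4.88 and 5.78 CPM in the grafts, and fell by 2.74 ± 0.37 (edgeR adjusted p = 0.000426).

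Of the remaining smooth-muscle-enriched genes, Des, the muscle intermediate filament desmin, stood at 1397, 1124, 676 and 935 CPM in the controls and at 232, 129, 154 and 236 CPM in the grafts, and fell by 2.46 ± 0.28 (SE; edgeR adjusted p = 0.000156). Nexn, the actin-binding protein nexilin, ranged from 97.5 to 133 CPM in the controls and from 10.6 to 23.7 CPM in the grafts, with a log2 fold change of -2.64. Pdlim3, an actinin-associated LIM protein, ranged from 158 to 304 CPM and from 23.4 to 54.2 CPM, with -2.31, and Csrp1, a LIM protein of smooth muscle, from 789.7 to 1648 CPM and from 319.8 to 373 CPM, with -1.93. All of them passed the threshold.

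**Figure D2:**
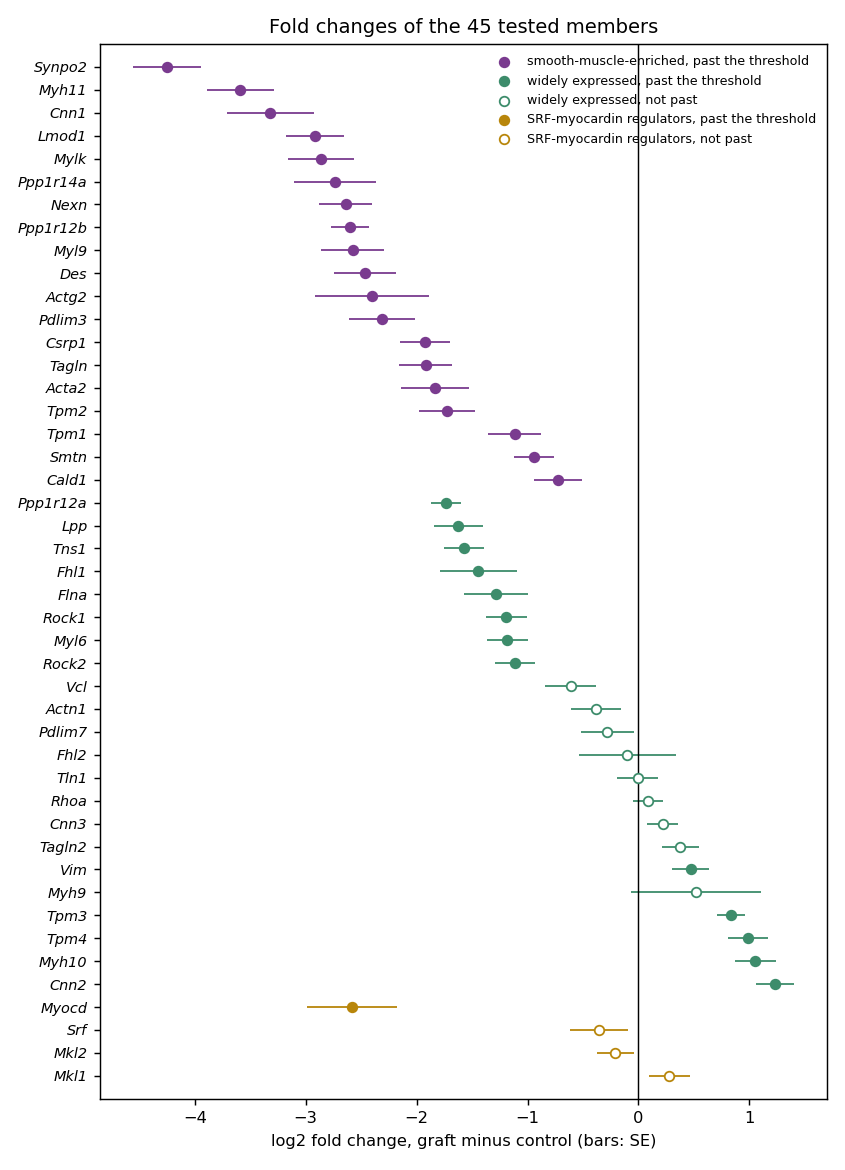
Log2 fold change (x axis, graft minus control) of the 45 tested members (y axis) with the standard error as a bar, purple for smooth-muscle-enriched, green for widely expressed and ochre for regulator genes, filled where edgeR's adjusted p was under 0.05 and open where it was not. All purple points lie to the left of 0, the green points run from -1.74 to 1.23, and of the ochre points only Myocd is filled.

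Libraries of the same group also differed. Control 3 was the lowest control for 18 of the 19 smooth-muscle-enriched genes and for 16 of the 22 widely expressed genes tested, against 23.5% of all genes tested. Graft 3 was the lowest graft for 15 of the 19 and 15 of the 22, against 32.2% of all genes. Set against the mean of the controls, the median of the 19 smooth-muscle-enriched genes was 0.35, 0.17, -0.41 and -0.01 in controls 1 to 4 on the log2 scale, and -2.11, -2.22, -3.09 and -2.33 in grafts 1 to 4. Each graft thus stood well below the lowest control, by more than the spread within either group. With any 1 library left out, control 3 included, 18 or 19 of the 19 genes passed. The coefficient of variation of these genes had a median of 23.6% over the controls and 30.6% over the grafts.

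Markers of other cell types moved with the groups too. Their counts stand beside shares of 21.0% that rose and 21.3% that fell over all genes tested. All 10 macrophage markers rose, their summed level going from between 351 and 518 CPM in the controls to between 3481 and 6513 CPM in the grafts, and all 9 adipocyte markers fell, from between 565 and 3690 CPM to between 136 and 177 CPM. Of 8 endothelial markers 4 fell and 4 did not pass, and their sum went from between 3129 and 4880 CPM to between 1451 and 1775 CPM. Of 8 fibroblast markers 2 rose and 3 fell, and of 6 pericyte markers 2 rose and 1 fell. All 5 tested T cell markers rose, but their sum stayed at or under 54.8 CPM. Of 5 Schwann cell markers 3 fell (median -3.78 over the 5) and 2 did not pass, with sums of 123 to 2077 CPM in the controls and 45.5 to 272 CPM in the grafts, which overlapped. Of 6 cardiac muscle markers 2 were tested and both rose (Tnnt2 by 4.12 and Myl4 by 2.88 on the log2 scale), with sums of 0.598 to 2.55 CPM in the controls and 5.03 to 27.2 CPM in the grafts, and Myl7 was at 0 in every library. Of 12 skeletal muscle markers 2 rose and 10 did not pass, and their sum overlapped between the groups (41 to 1529 CPM in the controls, 42.1 to 1045 CPM in the grafts). Des, Nexn, Pdlim3, Synpo2 and Fhl1 are among the members also made by skeletal muscle. With 1 library left out at a time, the log2 fold change ran from -2.62 to -2.28 for Des, from -2.74 to -2.42 for Nexn, from -2.46 to -2.07 for Pdlim3, from -4.47 to -4.06 for Synpo2 and from -1.72 to -1.17 for Fhl1. Skeletal muscle markers summed to 820, 407 and 1045 CPM in grafts 1, 3 and 4 and to 1529 CPM in control 3. Leaving out 1 library therefore does not take that tissue out of the comparison. The part that the shares of these cell types have in the results on the 46 genes was not tested.

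Of the 4 regulators, Myocd fell and the other 3 did not pass, where 21.3% of all genes tested fell. A count of 1 in 4 is near that share and is not read as a result on the set. Myocd stood at 128, 201, 126 and 148 CPM in the controls and at 20, 47.8, 10.2 and 22.7 CPM in the grafts. Every graft was below every control, with graft 2 highest and graft 3 lowest, and Myocd fell by 2.58 ± 0.41 (edgeR adjusted p = 0.000931). Srf stood at 95.5, 57.8, 35.8 and 50.6 CPM in the controls and at 47.3, 45.7, 54.9 and 40.2 CPM in the grafts. The grafts lay inside the range of the controls, and the log2 fold change was -0.35 ± 0.26 (edgeR adjusted p = 0.307). With controls 3 and 4 left out it was -0.70 and past the threshold (edgeR adjusted p = 0.0423). Mkl1 stood at 106, 79.9, 70.5 and 58.4 CPM in the controls and at 87.1, 94.5, 115 and 86 CPM in the grafts, a log2 fold change of 0.28 ± 0.18 (edgeR adjusted p = 0.255). Without control 1, the highest control, Mkl1 was past the threshold at 0.45 (edgeR adjusted p = 0.0333). Mkl2 stood at 19.2, 21.6, 30.0 and 22.6 CPM in the controls and at 18.6, 19.5, 20.5 and 22.4 CPM in the grafts, at -0.21 ± 0.16 (edgeR adjusted p = 0.336). Scaled by library totals alone, Mkl2 stood at 0.0168. For these 3 genes a miss of the threshold does not show equal levels.

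Set against the other regulators inside each library, Myocd was lower in every graft. Counts of Myocd were 1.21 to 2.54 times those of Mkl1 in the controls and 0.0885 to 0.506 times in the grafts, and 1.34 to 3.52 times those of Srf in the controls and 0.185 to 1.05 times in the grafts. In both ratios the groups did not overlap. They were computed after the values were seen and carry no test.

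Of 22 further regulators of contractile genes, listed beside the members, 19 were tested, of which 7 fell, 1 rose and 11 did not pass (median -0.17). This list, like the other lists, was chosen with earlier results of these data known. Among all genes tested, 21.3% fell and 21.0% rose. Hexim1, an inhibitor of transcription elongation, fell from 86.4 ± 12 to 43.3 ± 10.7 CPM (SD, n = 4; log2 -0.99 ± 0.19 SE; edgeR adjusted p = 0.00281). Klf4, a factor that represses contractile genes in cultured smooth muscle cells, fell from 88.6 ± 11.3 to 57.5 ± 5.47 CPM (log2 -0.62 ± 0.13; edgeR adjusted p = 0.00357). Hdac9, a histone deacetylase, rose from 23.2 ± 5.64 to 41.1 ± 6.23 CPM (log2 0.83 ± 0.20; edgeR adjusted p = 0.00942). Prrx1, a mesenchymal homeobox gene and the most abundant of the list, fell by 0.60 ± 0.19 (edgeR adjusted p = 0.0273). Scaled by library totals alone, 4 genes of the list fell and 1 rose.

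The promoter windows of the members, taken from RefSeq on the build GRCr8 and matched by symbol, show where Srf's CArG box stands in genes that fell, rose or did not pass. A window runs from 250 bases before to 50 bases after a start site, and 38 of the 46 members had at least 1. The CArG box, a run of 6 A or T bases between CC and GG that reads in the same form on both strands, occurred in the windows of 4 of the 38 members (10.5%) and of 485 of all 27457 genes with a window (1.77%). A form with exactly 1 C or G among the 6 inner bases occurred in 2 members (5.26%), Acta2, which fell, and Tpm3, which rose, and in 8.68% of all genes. Shown are the stretches around the boxes for these 6 genes, read 5′ to 3′ along the gene's strand and ending before the start site, with the boxes in capitals.
Acta2: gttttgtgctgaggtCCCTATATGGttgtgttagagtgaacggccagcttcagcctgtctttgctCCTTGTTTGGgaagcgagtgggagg
Tpm3: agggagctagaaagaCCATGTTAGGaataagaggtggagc
Srf: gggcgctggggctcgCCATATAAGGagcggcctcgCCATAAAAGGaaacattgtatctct
Cnn2: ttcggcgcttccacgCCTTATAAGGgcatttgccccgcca
Fhl1: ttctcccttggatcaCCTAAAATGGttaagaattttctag
Fhl2: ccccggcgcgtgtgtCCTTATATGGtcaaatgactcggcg

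The Acta2 stretch (chr1:241172563-241172652, minus strand), from a gene that fell, has 2 boxes of that second form. Tpm3 has 1 of that form in each of 2 windows, here that at chr2:177814802-177814841 (plus strand). The Srf stretch (chr9:21923980-21924039, plus strand) has 2 full boxes, 81 to 52 bases before the start. Cnn2 (chr7:10370359-10370398, minus strand) has 1 full box from 71 to 62 bases before its start, and its counts rose. Fhl1 (chrX:139638379-139638418, plus strand) has 1 and fell, and Fhl2 has 1 in each of its 2 windows, here that at chr9:52923360-52923399 (minus strand), and did not pass. Of the 14 smooth-muscle-enriched genes with a window, 0 held a full box. No window was matched for Myh11, Tagln, Lmod1, Myl9, Pdlim3, Myocd, Tns1 or Lpp. The motif CATTCC, bound by TEAD factors and searched on both strands, occurred in 11 of the 38 members (28.9%) and in 15.0% of all genes with a window. A match describes letters and shows no binding, and the lack of one speaks only of this window.

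Widely expressed cytoskeletal genes moved in both directions. Of 23 members 22 were tested: 5 rose (Cnn2, Myh10, Tpm4, Tpm3 and Vim), 8 fell (Ppp1r12a, Lpp, Tns1, Fhl1, Flna, Rock1, Myl6 and Rock2) and 9 did not pass. These counts and the median below include the Myh9 row, which holds few reads and did not pass, and leave out Palld. Another row with Palld's gene number, described below, fell (log2 -0.95) and is not counted here. The shares that rose or fell over all genes are 21.0% and 21.3%, so the count of 5 that rose is near the share over all genes. The median log2 fold change was -0.19, between -2.46 for the smooth-muscle-enriched genes and 0.01 for all genes tested. The groups did not overlap for 5 genes with the grafts higher, against 20.8% of all genes, and for 8 with the grafts lower, against 19.8%.

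**Figure D3:**
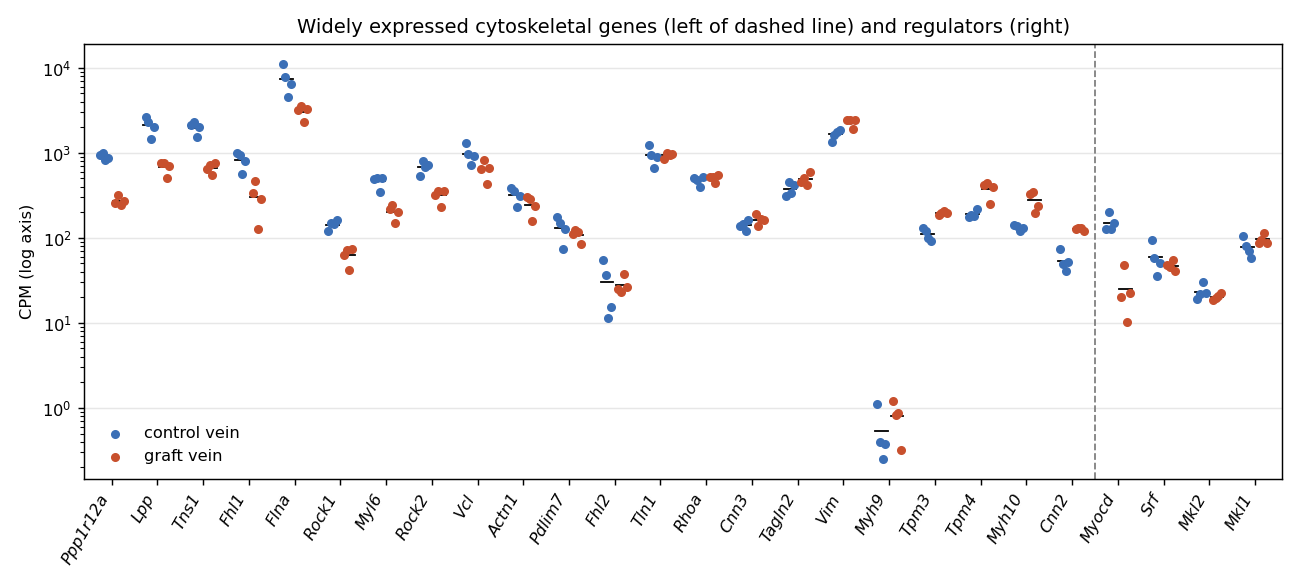
Level of each tested widely expressed gene (left of the dashed line) and regulator (right of it) in CPM on a log axis, ordered by fold change within each set, with 1 point per library, blue for control veins and red for grafts, and a black line at each group mean. The red points lie below the blue ones at the left end, among them Ppp1r12a and Lpp, and above them for Tpm3, Tpm4, Myh10 and Cnn2, and Myh9 stands near 1 CPM.

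Apart from Vim, those that rose are relatives of contractile proteins made in many cell types. Other such relatives did not rise: Tagln2 and Cnn3 did not pass, and Myl6 and Ppp1r12a fell. Cnn2, the calponin of non-muscle cells, stood at 74.2, 48.8, 41.2 and 51.9 CPM in the controls and at 126, 131, 131 and 121 CPM in the grafts, and rose by 1.23 ± 0.17 (edgeR adjusted p = 0.000472). The 4 grafts lay close together and all above control 1, the highest control. Myh10, non-muscle myosin IIB, stood at 141, 138, 122 and 132 CPM in the controls and at 325, 349, 196 and 236 CPM in the grafts, and rose by 1.05 ± 0.18 (edgeR adjusted p = 0.00161). Tpm4 stood at 176, 188, 182 and 218 CPM in the controls and at 414, 445, 253 and 397 CPM in the grafts, and rose by 0.98 ± 0.18 (edgeR adjusted p = 0.00205). In both genes graft 3 was the lowest graft and still above every control. Tpm3 stood at 129.8, 120.1, 98.4 and 92.4 CPM in the controls and at 188, 196, 207 and 195 CPM in the grafts, and rose by 0.83 ± 0.13 (edgeR adjusted p = 0.000844).

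Vim, vimentin, the intermediate filament of mesenchymal cells and leukocytes, stood at 1354, 1637, 1733 and 1858 CPM in the controls and at 2416, 2393, 1886 and 2418.5 CPM in the grafts. The groups did not overlap, but graft 3 came close to control 4. Its log2 fold change was 0.47 ± 0.16 (edgeR adjusted p = 0.0437), and it was not past the threshold in 11 of 16 alternative analyses (edgeR adjusted p up to 0.101), among them those without any single control and without graft 1, 2 or 4.

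The falls in this set include a phosphatase subunit, 2 kinases and adhesion proteins. Ppp1r12a, the myosin phosphatase subunit found in most cells, stood at 943, 991, 822 and 862 CPM in the controls and at 257, 315, 240.3 and 272 CPM in the grafts, and fell by 1.74 ± 0.14 (SE; edgeR adjusted p = 3.2e-05). Rock2, a kinase that holds that phosphatase in check, stood at 539.6, 795, 681 and 715 CPM in the controls and at 321, 357, 232 and 354 CPM in the grafts, and fell by 1.11 ± 0.18 (edgeR adjusted p = 0.00107). Its relative Rock1 ranged from 120.3 to 159.8 CPM in the controls and from 41.5 to 73.8 CPM in the grafts, with a log2 fold change of -1.19. Rhoa, the GTPase that activates both kinases, did not pass: it stood at 507, 479, 398 and 523 CPM in the controls and at 519.6, 516, 438 and 552 CPM in the grafts (log2 0.09 ± 0.14; edgeR adjusted p = 0.632).

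Flna, the actin crosslinker filamin A, stood at 11114, 7675, 4547 and 6400 CPM in the controls and at 3178, 3503, 2276 and 3244 CPM in the grafts, and fell by 1.29 ± 0.29 (SE; edgeR adjusted p = 0.00586). Control 1 was more than 2 times as high as control 3. Lpp, an adhesion protein abundant in smooth muscle, ranged from 1461 to 2637 CPM in the controls and from 501 to 762 CPM in the grafts, with a log2 fold change of -1.62, and Tns1, tensin, from 1536 to 2278 CPM and from 543 to 762 CPM, with -1.57. Fhl1, a LIM protein of striated and smooth muscle, stood at 986, 938, 569 and 794 CPM in the controls and at 332, 460.2, 127 and 289 CPM in the grafts, and fell by 1.44 ± 0.35 (edgeR adjusted p = 0.0085). Its relative Fhl2 stood at 55.6, 36.9, 11.5 and 15.5 CPM in the controls and at 25.2, 23.1, 37.5 and 26.6 CPM in the grafts. The grafts lay inside the wide range of the controls (log2 -0.10 ± 0.44; edgeR adjusted p = 0.874), and Fhl2 stood above 0 under library totals alone (0.145), limma voom (0.0872) and without control 1 (0.389) or control 2 (0.0226). Myl6, the essential light chain of both muscle and non-muscle myosin, stood at 492, 504, 342 and 503 CPM in the controls and at 215, 244, 149 and 203 CPM in the grafts and fell by 1.18 ± 0.19 (edgeR adjusted p = 0.000937).

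Of Tln1, Vcl, Actn1 and Pdlim7, which tie actin filaments to adhesion sites or to each other, none passed the threshold. Tln1, talin, stood at 1229.9, 947, 662 and 902 CPM in the controls and at 846, 982, 931 and 963 CPM in the grafts (log2 -0.01 ± 0.19; edgeR adjusted p = 0.978), and its sign turned under 9 of 16 alternatives, from -0.22 to 0.22. Vcl, vinculin, stood at 1291, 974, 725 and 914 CPM in the controls and at 649, 811, 432 and 662 CPM in the grafts, and missed the threshold (log2 -0.61 ± 0.23; edgeR adjusted p = 0.0558). It passed with DESeq2 (adjusted p = 0.0237), with limma voom (adjusted p = 0.0473) and without control 3 (edgeR adjusted p = 0.0363) or graft 2 (edgeR adjusted p = 0.0425). Actn1, alpha-actinin, stood at 381, 356, 229 and 308 CPM in the controls and at 300.4, 287, 159 and 233 CPM in the grafts (log2 -0.38 ± 0.22; edgeR adjusted p = 0.201). Pdlim7, a LIM protein of actin bundles, stood at 177, 148, 74 and 127 CPM in the controls and at 111, 123, 116 and 83.6 CPM in the grafts (log2 -0.28 ± 0.24; edgeR adjusted p = 0.382), and passed at -0.58 with controls 3 and 4 left out (edgeR adjusted p = 0.0427).

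The non-muscle relatives Tagln2 and Cnn3 also missed the threshold. Tagln2 stood at 309.6, 454, 333 and 414 CPM in the controls and at 452, 502, 417 and 592 CPM in the grafts (log2 0.38 ± 0.17 SE; edgeR adjusted p = 0.097). Cnn3 stood at 137, 145, 119 and 162 CPM in the controls and at 191, 136, 167 and 162 CPM in the grafts (log2 0.22 ± 0.14; edgeR adjusted p = 0.229). The groups overlapped in both genes, and both passed with library totals alone (edgeR adjusted p = 0.0102 and 0.0234), a scaling that moved the median of all genes from 0.01 to 0.23.

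For 2 members the row of that name does not carry usable values. Myh9, non-muscle myosin IIA, known from most cell types, had 15, 4, 3 and 2 counts in the controls and 20, 11, 11 and 5 counts in the grafts, at or under 1.21 CPM everywhere. The RefSeq gene table lists Myh9l1 as another name of this gene, so reads of near-identical models may not be in this row, and no level of Myh9 is taken from it. Palld, the actin scaffold palladin, had 0 counts in every control and 24, 0, 6 and 7 counts in the grafts and was not tested. RefSeq gives the gene number of Palld to another row of the table, LOC100360205. That row, found after the values were seen, stood at 833, 998, 754 and 942 CPM in the controls and at 568, 430.04, 398 and 426 CPM in the grafts, with no overlap, and fell by 0.95 ± 0.16 (SE; edgeR adjusted p = 0.0013).

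The comparison of muscle genes with their relatives was then made inside each library, as the log2 ratio of the 2 genes' counts. Such a ratio is free of library scaling, its level depends on the lengths of the genes, and only its change between groups is read. In 9 of the 10 pairs that do not use the Myh9 row, the ratio was lower in every graft than in every control, each with an exact two-sided permutation p of 0.0286, the smallest that 4 against 4 libraries allow (adjusted p = 0.0314 over the 11 pairs computed, Myh11/Myh9 included). For Myh11/Myh10, Cnn1/Cnn2, Des/Vim, Tpm2/Tpm4 and Tpm1/Tpm3, the groups were already apart in opposite directions for the 2 genes. For Cnn1/Cnn3, Tagln/Tagln2 and Ppp1r12b/Ppp1r12a, the ranges of the 2 genes in each group already kept the ratios apart. The outcome of the tests on all these pairs was therefore set by the values above. All pairs reuse the counts described above, so these p-values are no separate support for the falls. The pair Actg2/Acta2, both muscle actins, overlapped between the groups (-0.56 ± 0.46, pooled SD; exact permutation p = 0.143, adjusted p = 0.143).

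**Figure D4:**
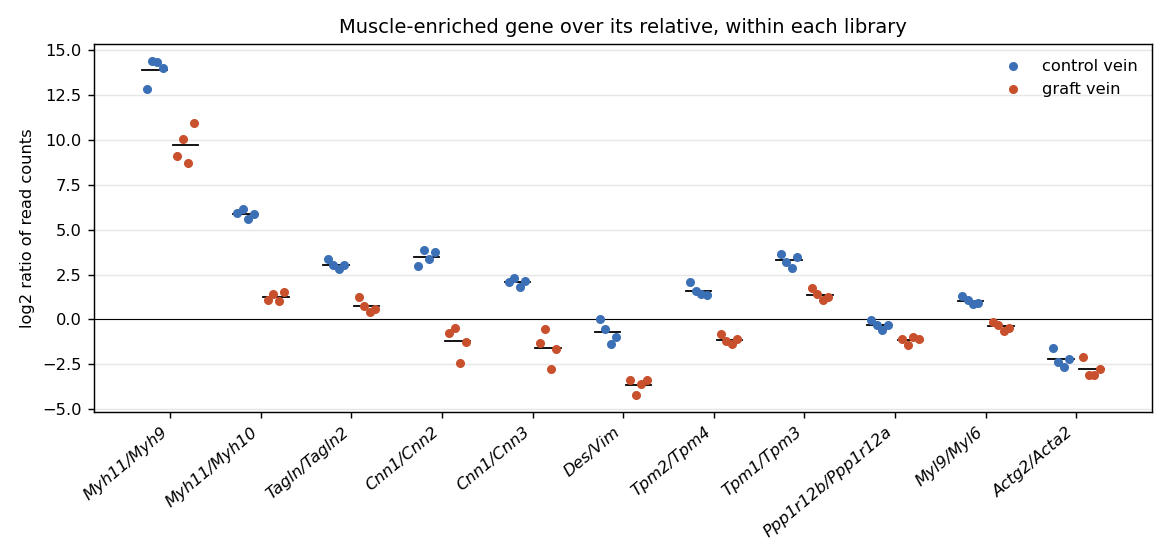
Log2 ratio of the read counts of 2 genes within a library (y axis) for the 11 pairs (x axis), with 1 point per library, blue for control veins and red for grafts, and a black line at each group mean. The red points lie below the blue points in every pair but Actg2/Acta2.

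Among the calponins, counts of Cnn1 were 7.87, 14.8, 10.1 and 13.7 times those of Cnn2 in controls 1 to 4 and 0.603, 0.713, 0.185 and 0.417 times in grafts 1 to 4, a change of -4.72 ± 0.68 (log2, pooled SD). Against Cnn3, another non-muscle calponin, the change was -3.67 ± 0.68. For the myosins, counts of Myh11 were 61.5, 71.3, 49.3 and 59.4 times those of Myh10 in the controls and 2.1, 2.63, 2.01 and 2.93 times in the grafts, a change of -4.65 ± 0.24. The pair with Myh9 gave -4.20 ± 0.86, with the groups apart, but rests on the few counts of that row and is not read further.

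Intermediate filaments, tropomyosins and transgelins parted less. Counts of Des were 1.03, 0.687, 0.39 and 0.503 times those of Vim in the controls and 0.0961, 0.0538, 0.0814 and 0.0975 times in the grafts, a change of -2.93 ± 0.51 (log2, pooled SD). Tpm2 to Tpm4 changed by -2.73 ± 0.28 and Tpm1 to Tpm3 by -1.92 ± 0.30. Counts of Tagln were 10.3, 8.05, 7 and 8.24 times those of Tagln2 in the controls and 2.35, 1.66, 1.31 and 1.49 times in the grafts, a change of -2.32 ± 0.30. For the light chains Myl9 and Myl6 the change was -1.41 ± 0.21, and for the phosphatase subunits Ppp1r12b and Ppp1r12a -0.83 ± 0.21. In these last pairs both genes fell, the muscle gene by more.

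Genes outside the 46 give the surroundings of these values. Of 39 other smooth muscle genes, all of them tested, 27 fell, 1 rose and 11 did not pass (median -1.49). Over all genes tested, 21.3% fell and 21.0% rose. Slmap, a membrane protein of muscle, fell from 562 ± 62.7 to 153 ± 14.3 CPM (SD, n = 4; log2 -1.88 ± 0.13 SE; edgeR adjusted p = 2.31e-05). Itga1, a collagen receptor subunit and the most abundant of the list, fell by 1.49 ± 0.19 (edgeR adjusted p = 0.000257). The gene that rose was Rgs5, a regulator of G protein signalling and also a pericyte marker, from 105 ± 27.7 to 196 ± 29.7 CPM (log2 0.90 ± 0.19; edgeR adjusted p = 0.00476).

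Of 55 other actin cytoskeleton genes, 53 were tested, of which 24 rose, 6 fell and 23 did not pass (median 0.45). The shares over all genes tested are 21.0% upward and 21.3% downward. Cotl1, a filament-binding protein abundant in leukocytes, rose from 18.7 ± 4.64 to 133 ± 15.8 CPM (SD, n = 4; log2 2.81 ± 0.19 SE; edgeR adjusted p = 2.1e-05), and Rac2, the GTPase of blood cells, from 7.89 ± 2.14 to 70.6 ± 26.5 CPM (log2 3.15 ± 0.30; edgeR adjusted p = 6.24e-05). Gsn, the filament-cutting protein gelsolin, fell from 2633 ± 432 to 443 ± 147 CPM (log2 -2.57 ± 0.25; edgeR adjusted p = 6.58e-05), and Cfl2, the cofilin of muscle, fell by 1.39 ± 0.20 (edgeR adjusted p = 0.000507). Actb, cytoplasmic beta-actin and the most abundant of the list, had a mean of 2472 ± 943 CPM over the controls and of 3991 ± 173 CPM over the grafts. Its groups did not overlap and it was not past the threshold (log2 0.69 ± 0.26; edgeR adjusted p = 0.0566).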

How the data were processed

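RNA of 4 vein grafts and 4 control jugular veins was sequenced following Illumina's protocols, per the labels. The submitters' processing notes name HISAT2 2.0.4 and the genome build Rnor_6.0. Counter, annotation release and strand setting: not given in the sources used here. For each gene and library the authors deposited a raw read count, a whole number, and the 8 columns carry the sample titles. Members are the rows of the given names, so reads split with copies or antisense genes are not recovered. Of 194 genes on the other lists, 1 (Npnt) was not found by symbol or synonym and is not analysed here.

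Counts were tested in R 4.3.3 with edgeR 4.0.16: filterByExpr (minimum count 10), TMM factors, glmQLFit and glmQLFTest without a block, Benjamini-Hochberg over 15464 genes, threshold 0.05. SE is the absolute log2 fold change over the square root of F. CPM use TMM-scaled library sizes. Ratios of counts took a prior count of 0.5 and an exact permutation test. No 2 libraries of a group agreed within sampling noise. Alternatives were library totals, RLE and upper-quartile factors, no filter, DESeq2 1.42.0, limma 3.58.1 voom, a replicate block, each library left out, and controls 3 and 4 left out. The edgeR procedure was tested on simulated data. Every member is accounted for, and of each other list the 2 genes with the smallest p per direction and the most abundant gene are named, except 1 gene that is not reported here. The members, lists and rules were chosen with earlier results of these data known.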

Additional observations from a re-analysis of the deposited data

Results flagged for a closer look

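In 114 groups of 4 values (46 genes and 11 ratios, in grafts and in controls), 3 libraries stood far from the other values of their group by Dixon's test at the 95% level, which chance alone would give in about 1 in 20 groups. Myh9 stood at 1.12 CPM in control 1 against 0.251 to 0.398 CPM in the other controls, on the few counts of that row. Vim stood at 1886 CPM in graft 3 against 2393 to 2418.5 CPM in the other grafts. Myl6 stood at 342 CPM in control 3 against 492 to 504 CPM in the other controls. Control 3 had the highest sum of skeletal muscle markers and was also the lowest control for 36 of the 45 tested members. A link of Myl6 to either was not tested.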

How the results depend on the processing

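Under 16 alternatives, 33 of 45 tested members kept direction and side of the threshold in every one, 9 changed side in at least 1 and 3 changed sign, none of which had passed. The smooth-muscle-enriched falls numbered 18 or 19 under every alternative. The 11 ratios kept their direction under all 11 alternatives run on them. Among these, the replicate block leaves the difference unchanged by construction and could not alter it. With a library left out the ratios were compared as values, with no test. With library totals alone, 2164 genes fell and 4558 rose (67.8% of calls upward, against 49.7%), and of the other lists 4 regulators fell and 3 smooth muscle genes rose. That last count was 2 with upper-quartile factors, DESeq2, limma voom or the replicate block, and 1 to 3 with 1 library left out. Among the 4 regulators, 0 to 1 rose with 1 library left out, and 2 fell with controls 3 and 4 left out. Tln1 turned to 0.22 (library totals), 0.0466 (upper quartile), 0.00885 (no filter), 0.0274 (voom) and 0.0251 (replicate block), and ran from -0.15 to 0.15 with 1 library left out. Fhl2 turned to 0.145 (library totals), 0.0872 (voom) and 0.132 (replicate block), and ran from -0.38 to 0.39 with 1 library left out. Mkl2 turned to 0.0168 with library totals. The cause was not tested.

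The titles number both groups 1 to 4, while other labels number the grafts differently. Deviations of same-numbered libraries correlated at -0.07, 0.18, 0.07 and 0.05, and not every library correlated best with its own number. Correlations this weak cannot show whether the numbers pair the samples, so the pairing is unknown and the main fit is unpaired. With the replicate block 38.2% of genes passed against 42.3%, Vim lost its call (edgeR adjusted p = 0.0697) and Vcl and Actn1 gained one (edgeR adjusted p = 0.0254 and 0.0332). For the ratios, the sign-flip test that served as block cannot go below an exact p of 0.125.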
